A study of Mus musculus with 2 samples.

Results

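Trem2, Tyrobp, Gpnmb, Lgals3 and Cd9 are the receptor, adaptor and lipid-associated genes by which lipid-laden macrophages of the atherosclerotic artery are often recognised. These 5 genes, matched by symbol among 32285 counted genes, were followed through single-cell RNA-seq of mouse aorta in 2 libraries, 1 per group. The WT library came from ApoE-/-/C57BL/6 mice fed a Western diet. The EC-iCD45KO library came from mice of the same ApoE-/- background and diet that also carried a tamoxifen-inducible deletion of CD45 (gene Ptprc) in endothelial cells. Both groups therefore lacked ApoE, and "WT" refers only to CD45. Aortic tissue was dissociated enzymatically, and cells were captured on beads against CD31, an endothelial surface protein that some leukocytes also carry. The Cre driver, the tamoxifen schedule, the ages and sexes, and any pooling of animals are not given in the sources used here. Since each group is 1 library, the conditions could not be tested against each other: every interval below is a 95% interval that covers counting error only, and differences between animals, digestions and captures cannot be told apart from the deletion.

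TREM2 is a surface receptor of macrophages and microglia that binds lipids, lipoproteins and cell debris. It has no signalling tail of its own and pairs with DAP12, the adaptor encoded by Tyrobp, whose tyrosine motif recruits the kinase SYK; DAP12 also serves many other receptors of myeloid and natural killer (NK) cells. Gpnmb encodes a transmembrane glycoprotein of lysosome-rich cells and is a known target of the MITF and TFE transcription factors. Lgals3 encodes galectin-3, a sugar-binding protein that is found at damaged lysosomes and is also secreted. Cd9 encodes a tetraspanin, a membrane organiser present on many cell types. In plaques, macrophages that take up cholesterol and become foam cells are known for high Trem2, Gpnmb, Lgals3 and Cd9.

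On GRCm38, Trem2 (ENSMUSG00000023992) lies at chr17:48346401-48354147, Tyrobp (ENSMUSG00000030579) at chr7:30413760-30417585, Gpnmb (ENSMUSG00000029816) at chr6:49036546-49070929 and Lgals3 (ENSMUSG00000050335) at chr14:47367751-47386160, all on the plus strand. Cd9 (ENSMUSG00000030342) lies on the minus strand at chr6:125460266-125494791 and is overlapped by the plus-strand genes Gm28809 and Gm26728, which are also in the matrices. The RefSeq promoter table (GRCm38.p6, 250 bases before to 50 after each start) held 4 of the 5 genes. It was searched on both strands for the E-box motifs CACGTG and CATGTG, which MITF and TFE factors bind, for TGANTCA, which AP-1 binds, and for GGAAGT, an ETS motif bound by the macrophage factor PU.1. The promoters of Trem2, Gpnmb and Cd9 are shown because each held 1 match, in capitals below. The Trem2 match began 9 bases before the RefSeq start of Trem2, and the Gpnmb match 8 bases after that of Gpnmb. For Gpnmb, Lgals3 and Cd9 the RefSeq start differs from the gene start given above. The Lgals3 window, chr14:47373610-47373909, lies inside the Lgals3 interval. The Cd9 match, 38 bases before the RefSeq start of Cd9, is CATGTG read on the opposite strand.
Trem2 promoter, chr17:48346151-48346450, plus strand: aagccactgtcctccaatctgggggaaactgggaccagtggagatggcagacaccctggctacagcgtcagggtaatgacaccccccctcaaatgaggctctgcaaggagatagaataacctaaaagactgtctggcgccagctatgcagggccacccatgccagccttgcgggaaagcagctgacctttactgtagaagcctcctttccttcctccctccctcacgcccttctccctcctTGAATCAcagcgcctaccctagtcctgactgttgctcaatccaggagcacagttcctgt
Gpnmb promoter, chr6:49036268-49036567, plus strand: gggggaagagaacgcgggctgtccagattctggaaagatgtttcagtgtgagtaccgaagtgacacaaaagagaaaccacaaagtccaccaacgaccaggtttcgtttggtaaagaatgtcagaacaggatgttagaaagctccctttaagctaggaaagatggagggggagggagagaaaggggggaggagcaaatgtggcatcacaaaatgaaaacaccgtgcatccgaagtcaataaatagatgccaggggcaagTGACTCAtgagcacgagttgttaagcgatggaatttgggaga
Cd9 promoter, chr6:125494711-125495010, minus strand: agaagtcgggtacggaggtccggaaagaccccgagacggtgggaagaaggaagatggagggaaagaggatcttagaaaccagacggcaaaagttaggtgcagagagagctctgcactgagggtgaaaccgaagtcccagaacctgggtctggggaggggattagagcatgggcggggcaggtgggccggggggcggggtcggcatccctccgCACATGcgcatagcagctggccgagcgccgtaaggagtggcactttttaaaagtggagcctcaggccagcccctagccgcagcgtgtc
No match overlapped another motif, and the Lgals3 window held none of the 4. Among 32851 mouse promoters of the same length, 7.81% held TGANTCA, 14.2% CATGTG, 7.15% CACGTG and 23.8% GGAAGT, so these matches only describe the windows.

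After filtering, 35553 cells of the WT library and 26064 of the EC-iCD45KO library were kept, with medians of 1615 and 1507 unique molecular identifiers (UMIs, each marking 1 captured RNA molecule). Clusters, built without the 5 genes, Ptprc and the gene lists described below, were named from marker genes. The mononuclear phagocyte-like class, which joins macrophages and monocytes, showed 12 of its 12 markers and held 3164 cells (8.90%) in WT and 9089 (34.9%) in EC-iCD45KO. B-like cells went from 5734 to 332 and T or NK-like cells from 4155 to 516, so the libraries differed widely in composition. The largest of the 4 phagocyte clusters differed between the libraries: in WT 40.0% were in a cluster led by Gpnmb and Mmp12, whereas in EC-iCD45KO 31.1% were in a shallow cluster led by Lyz2 and Apoc2, with a median of 750 UMIs per cell. Of the deposited barcodes, 340 occurred in both libraries. Ptprc, the targeted gene, stood at 300.3 CPM (UMIs of the gene per 1000000 UMIs of the cells summed) in WT and 114 CPM in EC-iCD45KO endothelial-like cells, and at 493 and 283 CPM in phagocytes, which the deletion was not meant to reach.

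Summed over all cells kept, each of the 5 genes was higher in the EC-iCD45KO library. Trem2 was at 268 CPM in WT and 436 CPM in EC-iCD45KO, Gpnmb at 88.7 and 185 CPM, and Lgals3 at 940.5 and 2036 CPM. Tyrobp was at 993 and 1946 CPM, and Cd9 at 523 and 755 CPM. In this total, more phagocytes and more RNA per phagocyte cannot be told apart, and the phagocyte share itself was several times larger in EC-iCD45KO. Phagocytes supplied 53.5% of all Trem2 UMIs in WT and 77.7% in EC-iCD45KO, and 49.3% and 77.6% of the Gpnmb UMIs. Unnamed clusters, with 9220 WT cells (25.9%) and 2460 EC-iCD45KO cells (9.44%), held 26.8% and 5.20% of the Trem2 UMIs and 27.5% and 5.79% of the Gpnmb UMIs, so the phagocyte shares also move with how much of each library was named. Cd9 was the least concentrated in them, with 23.2% and 46.2%.

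Across the 13 named classes, Trem2, Gpnmb and Lgals3 were highest in phagocytes in both libraries. Trem2 was at 1008 CPM in WT phagocytes (990.0 to 1026) and 778 CPM in EC-iCD45KO phagocytes (769 to 787). The next classes were erythroid-like cells, at 261 CPM in WT and 495 CPM in EC-iCD45KO, and Schwann-like cells, at 201 and 308 CPM. B-like cells had the lowest Trem2 level, 17.1 and 23.1 CPM. After cells were thinned to 1000 UMIs, which left out the shallower 338 WT and 2651 EC-iCD45KO phagocytes (1283 and 1563 endothelial-like cells), a Trem2 UMI was found in 46.1% of WT phagocytes (44.3 to 48.0, Clopper-Pearson) and 41.9% of EC-iCD45KO phagocytes (40.7 to 43.1). In endothelial-like cells, which should lack Trem2, the shares were 11.4% and 17.6%. Phagocytes were deeper (medians 3328.5 and 2309 UMIs) than endothelial-like cells (1345 and 1278 UMIs). Before thinning, the Trem2 shares were 65.8% and 59.7% of phagocytes and 17.0% and 22.7% of endothelial-like cells.

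**Figure D1:**
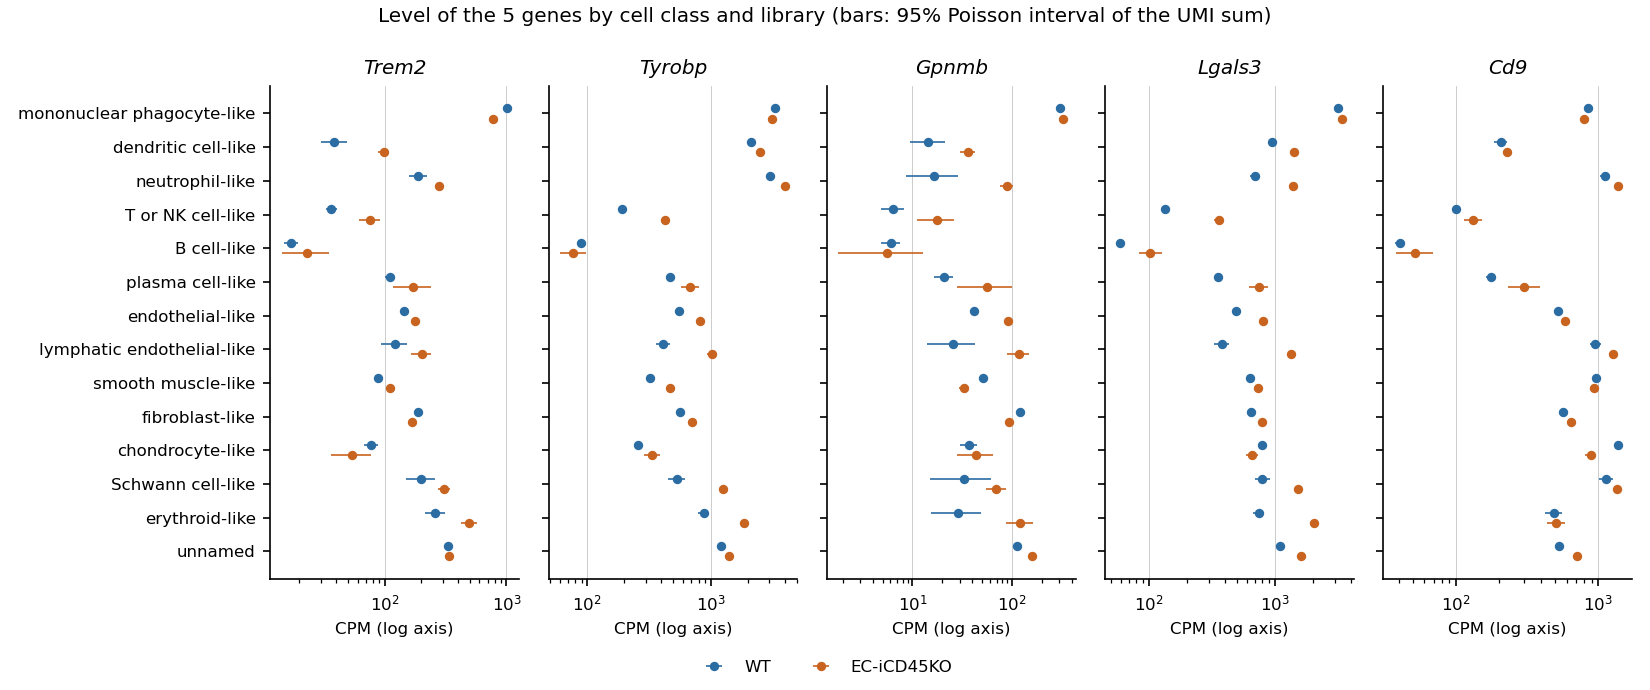
Level of each gene (CPM, log axis) in each named cell class and in the unnamed clusters. Each has 1 point per library with a 95% Poisson interval. Trem2, Gpnmb and Lgals3 peaked in phagocytes in both libraries, Tyrobp was near or above its phagocyte level in neutrophil-like cells, and Cd9 exceeded its phagocyte level in chondrocyte-like, smooth muscle-like, Schwann-like, neutrophil-like and lymphatic endothelial-like cells.

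Free RNA, released by broken cells, adds a little of every gene to every droplet and keeps genes of 1 source in 1 ratio. The level of each gene in 12 other classes was therefore expressed as a percent of its phagocyte level, and set beside the same percent for 4 phagocyte markers, C1qa, C1qb, Csf1r and Ms4a7. Trem2 stayed within 2-fold of these markers. Its percent was 0.62 to 1.32 times the marker median in WT and 0.61 to 1.34 times in EC-iCD45KO. It lay above the highest of the 4 markers in 5 of 12 classes and below the lowest in 3 in WT, and above in 1 and below in 6 in EC-iCD45KO. Endothelial-like cells held 14.3% of the phagocyte Trem2 level beside 14.5% for the markers in WT, and 23.0% beside 23.4% in EC-iCD45KO. Within endothelial-like cells, a shallow cluster (median 992 UMIs in EC-iCD45KO) held 45.9% of the phagocyte level and a deep one led by the same Gpihbp1 (median 3001 UMIs) 4.59%, again beside 46.2% and 5.20% for the markers. The part of free RNA in these levels was not tested, and the marker percent itself was higher in EC-iCD45KO in 12 of 12 classes (median 20.7% against 10.6% in WT).

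Tyrobp was over 2 times the marker median in 2 leukocyte classes, in which DAP12 has other partner receptors. Neutrophil-like cells held Tyrobp at 3030.3 CPM in WT and 4004 CPM in EC-iCD45KO, which was 91.4% and 128% of the phagocyte level beside marker medians of 19.6% and 38.3%. Dendritic-like cells held 2135 and 2515 CPM, or 64.4% and 80.5% beside 6.24% and 18.2%. Trem2 in these neutrophil-like cells was at 18.8% and 36.0%, close to the markers. Their levels of Trem1 (494 and 481 CPM) and Trem3 (281 and 247 CPM), receptors that also signal through DAP12, were far above the 18.8 and 27.1 CPM of Trem1 and the 14.4 and 14.5 CPM of Trem3 in phagocytes. In dendritic-like cells the plasmacytoid receptor Siglech was at 91.4 and 34.3 CPM, against 2.14 and 0.416 CPM in phagocytes. Among T or NK-like cells, the NK-like subcluster (63 and 8 cells) had 1369 and 1987 CPM of Tyrobp and 2 and 0 UMIs of Trem2. A subcluster led by Ebf1, Lyz2 and C1qc, genes of B cells and phagocytes, had 857 and 2091 CPM of Tyrobp together with 176 and 397 CPM of Trem2. The other subclusters with at least 50 WT cells had at most 133 CPM of Tyrobp in WT. Below that size, the Il22 subcluster (49 WT cells) had 176 CPM and the Arpp21 subcluster (6 WT cells) 539 CPM in WT. In EC-iCD45KO the Il1rl1 subcluster (19 cells) had 301 CPM. Trem3 and Siglech were named after their values were seen.

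Cd9 was over 2 times the marker median in 11 of 12 classes in WT and 9 in EC-iCD45KO, Lgals3 in 3 and 1, and Gpnmb in 2 and 0. Gpnmb was below the lowest marker in 5 and 7 classes. A deep smooth muscle-like cluster (771 and 698 cells, medians 7024 and 11017.5 UMIs) held 21.5% and 14.7% of the phagocyte Lgals3 level, beside marker medians of 2.01% and 3.08%. Chondrocyte-like cells held 24.8% and 19.3% beside 6.83% and 11.4%, and dendritic-like cells 30.3% and 41.6%. Gpnmb stood above the markers in a fibroblast-like cluster led by Saa3 and Sfrp4 in WT, at 34.6% beside 7.65%, but at 18.6% beside 16.9% in EC-iCD45KO. It stood above them in an endothelial-like cluster led by Cytl1 and Sfrp1 mainly in EC-iCD45KO, at 48.2% beside 18.4% (17.8% beside 11.3% in WT). Cd9 exceeded the highest marker in 11 of 12 classes in WT and 10 of 12 in EC-iCD45KO. Its level in smooth muscle-like cells was 113% and 118% of that in phagocytes, in chondrocyte-like cells 162% and 112%, in neutrophil-like cells 131% and 174%, in Schwann-like cells 134% and 170.5%, and in lymphatic endothelial-like cells 112% and 159.9%. The Cd9 level thus did not set phagocytes apart from these classes, and smooth muscle-like cells alone supplied 20.7% and 20.4% of all Cd9 UMIs.

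**Figure D2:**
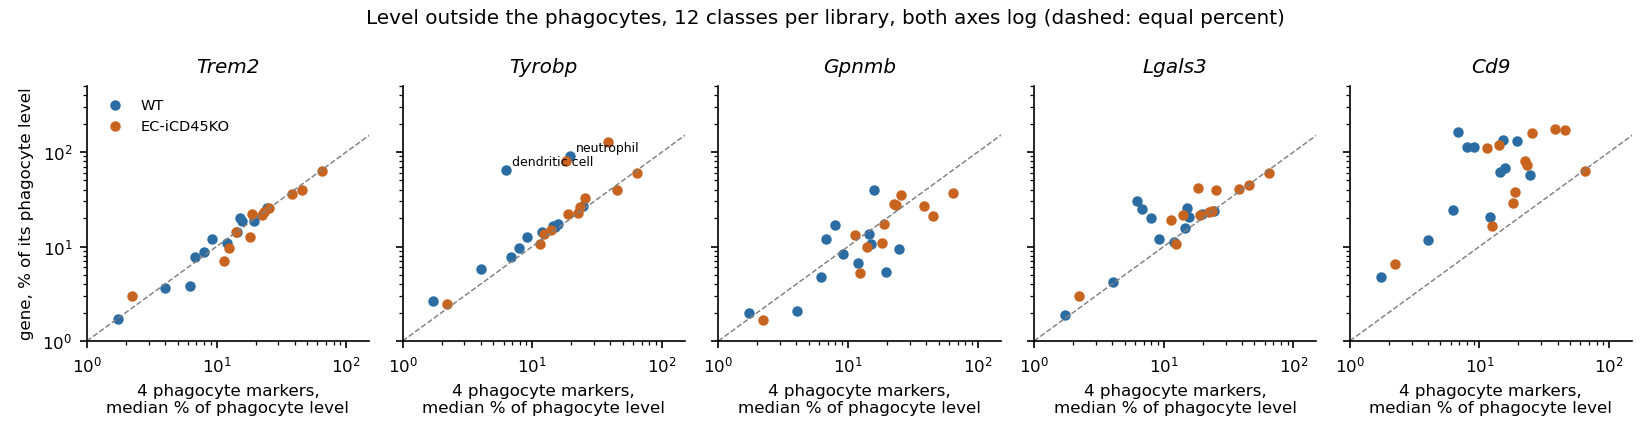
Level of each gene in each class as a percent of its level in phagocytes (log axis), plotted against the median percent of 4 phagocyte markers. Points on the diagonal have the percent that the markers have: Trem2 lies along it, Tyrobp lies far above it in neutrophil-like and dendritic-like cells, and Cd9 lies above it in nearly all classes.

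Within phagocytes, Trem2 was lower in EC-iCD45KO than in WT, and the other 4 genes differed by less in the summed counts. The log2 ratio of EC-iCD45KO over WT was -0.37 for Trem2 (-0.40 to -0.34), a level 1.30-fold higher in WT. The share of thinned phagocytes with a Trem2 UMI was 4.23 percentage points lower in EC-iCD45KO (Newcombe interval 2.04 to 6.43 points lower). For Tyrobp, the partner of TREM2, the log2 ratio was -0.09 (-0.10 to -0.07), from 3315 and 3125 CPM. Gpnmb was at 307 and 330.1 CPM, a log2 ratio of 0.11 (0.05 to 0.16), and Lgals3 at 3163 and 3427 CPM, a log2 ratio of 0.12 (0.10 to 0.13). Cd9 was at 851 and 799.8 CPM, a log2 ratio of -0.09 (-0.12 to -0.06). None of the 5 genes was 2-fold apart. Of the 9498 genes that averaged 5 CPM or more in phagocytes, 0.726% were at least 2-fold higher in EC-iCD45KO and 1.56% in WT, and their median log2 ratio was -0.04. The summed level of the 12 phagocyte markers was 18176 CPM in WT and 16617 CPM in EC-iCD45KO; its part in the Trem2 difference was not tested. The Gpnmb ratio depended on the processing: it was -0.14 without doublet removal, which changes both the cells counted and the clusters, -0.017 with each library centred, 0.16 at resolution 2, 0.51 as a mean of single-cell CPM and 0.29 with equal weights for subclusters. With equal weights for the 10 subclusters described next, Trem2 was at -0.24 and Cd9 at 0.096, and Tyrobp was at -0.032 with each library centred.

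Among phagocyte subclusters, Trem2 was highest in the foamy macrophage-like cells, which were led by Mmp12, Ctsk and Spp1 and held 267 WT and 495 EC-iCD45KO cells. Their medians of 6264 and 6551 UMIs were alike. Trem2 was at 2164 CPM there in WT (2099 to 2231) and 1590.4 CPM in EC-iCD45KO (1552 to 1629.7). Next came a subcluster led by Nes and Nav3, which resembled no marker list, at 1316 and 1047 CPM, and 1 led by Gpnmb, Gdf15 and Fabp5, at 1257 and 1016 CPM; the intervals of these last 2 overlapped in both libraries. Trem2 was at 476 and 443 CPM in resident macrophage-like cells led by Ccl8 and Retnla, and at 277 and 327 CPM in monocyte-like cells led by Cxcl3. Classical monocyte-like cells led by Plac8 and Ly6c2 had the lowest level, 83.5 and 90.1 CPM. From the lowest to the highest of the 10 subclusters with at least 50 cells in both libraries, Trem2 spanned 25.9-fold in WT and 17.6-fold in EC-iCD45KO. The order of the first 4 and the last 2 subclusters was the same in both libraries.

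Tyrobp, the adaptor, was high in each of the 10 subclusters, from 2547 and 2404 CPM in Ccl8 resident macrophage-like cells to 4077 and 4098 CPM in Plac8 monocyte-like cells, which were the lowest for Trem2. Gpnmb was the most restricted. It stood at 1532 and 1542 CPM in foamy macrophage-like cells, at 334 and 566 CPM in the Gdf15 subcluster, and at 64.2 and 36.0 CPM in the Nes subcluster, where Trem2 was next to highest. In the Ccl8 resident macrophage-like cells Gpnmb had 1 and 2 UMIs in all. Lgals3 was at 6985 and 7516 CPM in foamy macrophage-like cells and at 341 and 265 CPM in the same Ccl8 cells, where Cd9 was also lowest, at 49.4 and 26.5 CPM. Cd9 was highest in foamy macrophage-like cells, at 1844 and 1867 CPM, and then in the Nes subcluster, at 1352 and 1477 CPM. The Ccl8 cells thus held Trem2 and Tyrobp with little Lgals3, Cd9 and Gpnmb, but a second resident macrophage-like subcluster, led by Tppp3 and Ltc4s and left out of the 10 because it held 20 WT cells (113 in EC-iCD45KO), had 4901 and 4456 CPM of Lgals3, 185 and 252 CPM of Cd9 and 36.99 and 162 CPM of Gpnmb. Plac8 monocyte-like cells held Tyrobp and Lgals3 (1760.1 and 1999 CPM) with little Trem2.

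**Figure D3:**
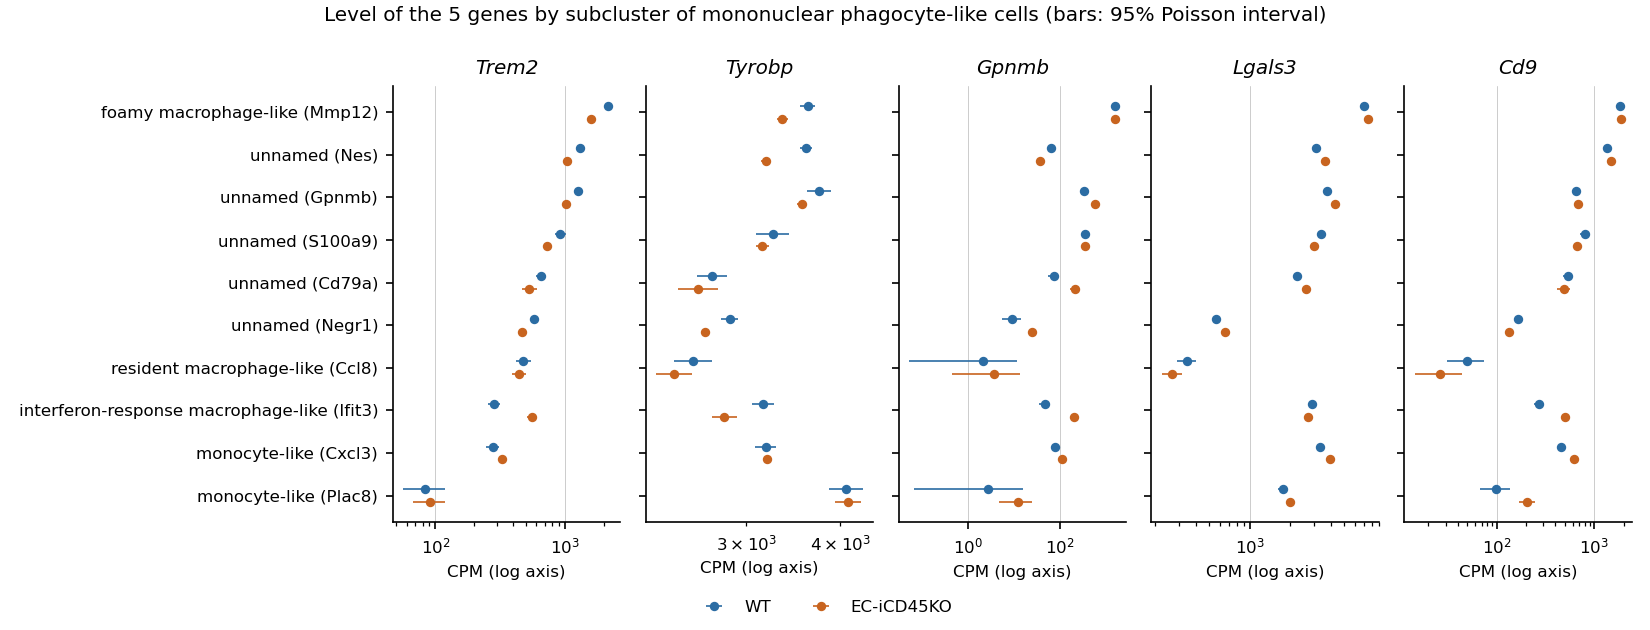
Level of each gene (CPM, log axis) in the 10 phagocyte subclusters with at least 50 cells in both libraries, with 95% Poisson intervals. The foamy macrophage-like subcluster is highest for Trem2, Gpnmb, Lgals3 and Cd9, whereas Tyrobp is highest in Plac8 monocyte-like cells.

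Set against the other phagocytes of its own library, the foamy macrophage-like subcluster held 2.73 times the Trem2 level in WT and 2.36 times in EC-iCD45KO. For Gpnmb the ratio was 19.1 and 8.74, for Lgals3 2.84 and 2.58, for Cd9 2.76 and 2.81, and for Tyrobp 1.11 and 1.08. So 4 of the 5 genes were at least 2-fold higher there in both libraries, as were 182 of 8894 genes (2.05%); the subcluster was formed without the 5 genes, but from genes of the same cells, and the ratios carry no test. The lower Gpnmb ratio in EC-iCD45KO came with a higher level outside the subcluster (176 against 80.3 CPM), not a lower level within it.

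**Figure D4:**
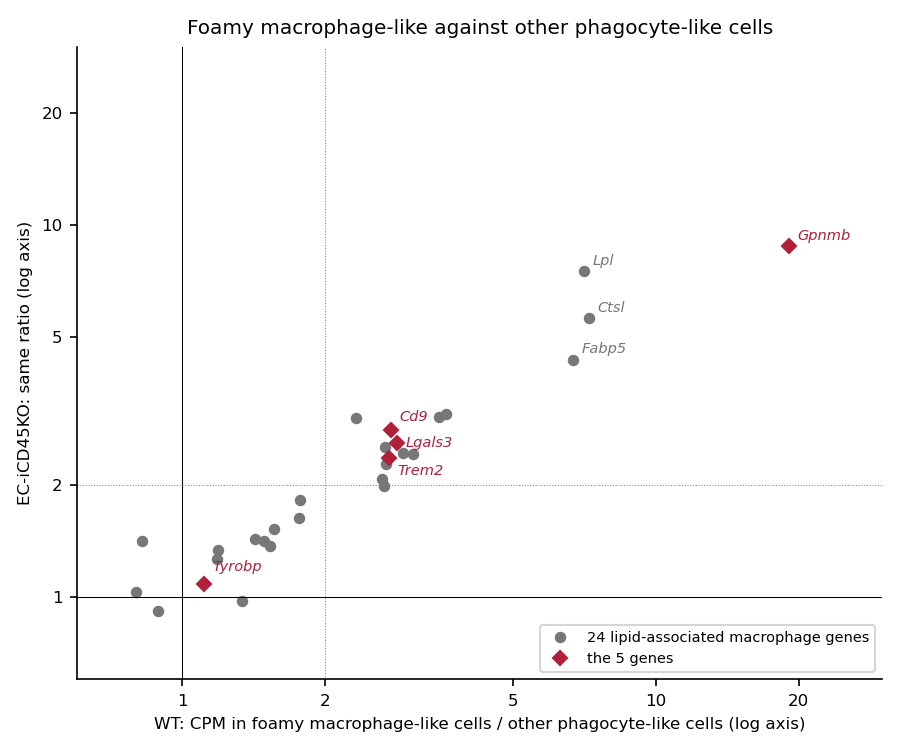
Level in foamy macrophage-like cells over the level in all other phagocytes (ratio, log axis), in WT and in EC-iCD45KO, for the 5 genes and the 24 lipid-associated macrophage genes; solid lines mark a ratio of 1 and dotted lines a ratio of 2. Gpnmb has the highest ratios of the 5, at 19.1 and 8.74, and Tyrobp lies near 1 in both libraries.

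Among the 10 subclusters, the largest drop of Trem2 in EC-iCD45KO was in the foamy macrophage-like cells. There the log2 ratio was -0.44 (-0.50 to -0.39), and the thinned share of cells with a Trem2 UMI was 83.4% in WT and 70.5% in EC-iCD45KO. Gpnmb (log2 ratio 0.01, -0.05 to 0.07) and Cd9 (0.02, -0.04 to 0.08) were level in the same cells, Tyrobp was at -0.11 and Lgals3 at 0.11. Of the 8894 genes that averaged 5 CPM or more in these cells, 1.95% were at least 2-fold higher in EC-iCD45KO and 2.63% in WT; none of the 5 was among them. Which cells fell in this subcluster depended on the processing (275 and 760 cells without doublet removal, 478 and 1966 at resolution 2, 166 and 40 with each library centred); over the alternatives the Trem2 ratio stayed between -0.62 and -0.39, whereas that of Gpnmb ran from -0.53 to 0.40 and that of Cd9 from -0.42 to 0.42, and the ratios of Tyrobp and Lgals3 changed sign. Trem2 was lower in EC-iCD45KO in 7 of the 10 subclusters, with an interval below 0 in 6, in each of which the ratio lay between -0.44 and -0.30. It was higher with an interval above 0 in 2 of the 10, and also in the smaller Tppp3 resident subcluster, at 0.76 (0.33 to 1.22), from 453 to 767 CPM; both resident subclusters joined were at 0.35 (0.14 to 0.56). One of the 2 was the Cxcl3 monocyte-like subcluster, at 0.24 (0.07 to 0.42). The other was the interferon-response macrophage-like subcluster led by Ifit3 and Cxcl9, at 0.96 (0.76 to 1.17), from 284 CPM in 304 WT cells to 553 CPM in 196 EC-iCD45KO cells. In that subcluster the summed phagocyte markers were also lower in WT (12497 against 17849.8 CPM), C1qa was at 2826 and 5005 CPM, and plasma-cell markers summed to 179 CPM in WT and 23.4 CPM in EC-iCD45KO; their part in the difference was not tested.

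Over the 10 subclusters, Gpnmb had the widest range of ratios between the libraries. Its log2 ratio was above 0 in 9 of the 10 subclusters, with an interval above 0 in 5. The highest ratio, 2.12 in Plac8 monocyte-like cells (2.78 and 12.1 CPM), had an interval from -0.84 to 7.62. Among the 5, the highest was 2.10 (1.65 to 2.58), in interferon-response macrophage-like cells, from 45.9 to 197 CPM. It was 1.45 (0.75 to 2.23) in the subcluster led by Negr1 and Ccl12, from 9.24 to 25.2 CPM, and 0.76 (0.57 to 0.95) in the Gdf15 subcluster. Only the Nes subcluster went the other way, at -0.84 (-1.11 to -0.56). Some leading genes of the subclusters belong to other cell types. Those of the interferon-response subcluster include the immunoglobulin gene Ighg3. In the subcluster led by Cd79a and Ly6d, B-cell markers summed to 689.6 and 530.3 CPM, and in the shallow one led by S100a9 and Lyz1, smooth muscle markers summed to 198 and 707 CPM. Gpnmb ratios in the Cd79a and S100a9 subclusters were 1.502 (0.98 to 2.03) and 0.02 (-0.22 to 0.27), and the part of these markers was not tested. Tyrobp had log2 ratios between -0.18 and 0.01 in all 10 subclusters.

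**Figure D5:**
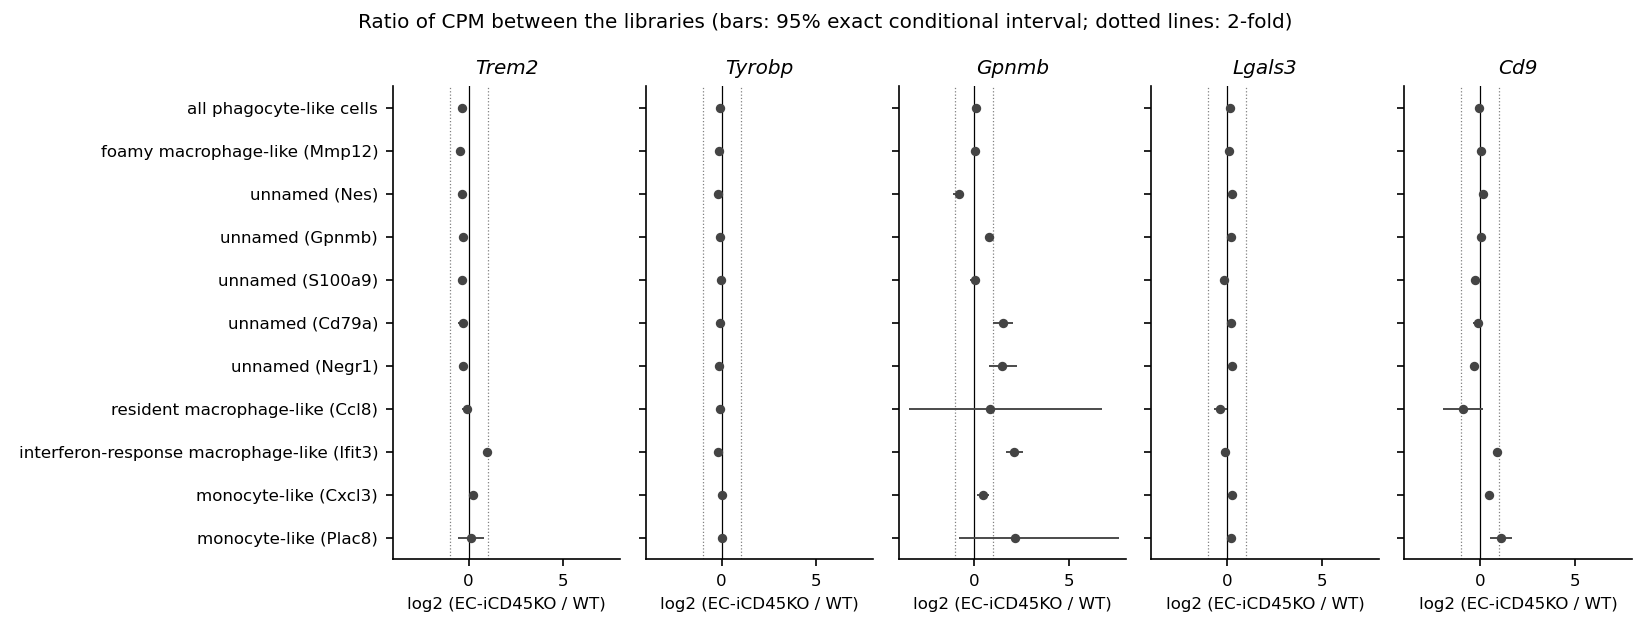
Log2 ratio of EC-iCD45KO over WT for each gene in phagocytes, in the 10 subclusters, with 95% exact conditional intervals; the solid line marks no difference and the dotted lines 2-fold. Trem2 lies between -0.44 and -0.30 in 6 subclusters and at 0.96 in interferon-response macrophage-like cells, whereas Tyrobp stays between -0.18 and 0.01.

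Few cells carried most of the Gpnmb RNA. The 1% of phagocytes with the most Gpnmb UMIs (32 WT and 91 EC-iCD45KO cells) held 53.8% and 47.1% of its UMIs, and the top 10% held 96.1% and 93.3%. For Trem2 the top 1% held 10.6% and 13.8%, and for Tyrobp 5.21% and 7.21%. Depth differed among these cells, so phagocytes were also thinned to 2000 UMIs, which kept 2266 WT and 4791 EC-iCD45KO cells and left out 898 and 4298. No Gpnmb UMI was left in 87.4% and 85.2% of them. No Trem2 UMI was left in 35.2% and 38.6%, and 5 or more were left in 12.05% and 5.95%. The lower Trem2 level in EC-iCD45KO thus came with fewer cells at the high end as well as more cells at 0. The mix of subclusters also differed. Before thinning, the Nes subcluster made up 24.2% of WT and 11.5% of EC-iCD45KO phagocytes, and foamy macrophage-like cells 8.44% and 5.45%. The Gdf15 subcluster made up 4.39% and 7.78%, and the S100a9 subcluster 10.0% and 35.4%. The part of this mix in the Trem2 shares was not tested.

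Cells with a Trem2 UMI more often had Gpnmb and Cd9 UMIs. At 2000 UMIs, Gpnmb was found in 17.7% of WT phagocytes with Trem2 and 3.26% of those without; in EC-iCD45KO the shares were 19.8% and 6.71%. Cd9 was found in 64.7% against 33.4% in WT and 56.4% against 34.0% in EC-iCD45KO, and Lgals3 in 85.6% against 77.3% and 84.9% against 76.6%. Tyrobp was found in nearly all phagocytes whether or not Trem2 was seen (99.5% of WT cells with and without it). Conversely, Trem2 was found in 90.9% of WT and 82.5% of EC-iCD45KO phagocytes with a Gpnmb UMI. Within the foamy macrophage-like cells of EC-iCD45KO the contrast for Gpnmb was small, 57.2% with Trem2 against 54.1% of 37 cells without, and in WT only 11 cells lacked Trem2. These cells share a library and, being of several subclusters, the shares describe the mixture.

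Receptors and signalling partners of DAP12 lay on both sides of 0 between the libraries. Of 12 measured receptors and adaptors that pair with or resemble TREM2, none was 2-fold apart between libraries in phagocytes, 9 were higher and 3 lower in EC-iCD45KO, and their median log2 ratio was 0.13; of all 9498 genes, 43.3% were higher. Trem1, which amplifies inflammatory signals, was at 0.52 (18.8 and 27.1 CPM), the activating receptor Sirpb1c at 0.44 (58.6 and 79.4 CPM) and Pilrb2 at 0.28 (20.9 and 25.3 CPM). The 17 signalling genes downstream of DAP12 had a median of -0.04, equal to that of all genes. Of these, 8 were higher and 9 lower, with intervals above 0 in 4 and below 0 in 7. Malt1, a scaffold of NF-kappaB signalling, was at 0.45, and the guanine nucleotide exchange factor Vav3 at 0.33. Among 5 measured sheddases and ligands of TREM2, the median was 0.03. Adam10 and Adam17, which cleave TREM2 from the surface, were at 0.25 (66.1 and 78.6 CPM) and 0.16 (126 and 141 CPM), and the ligand clusterin (Clu) at 0.03. Apoe, a ligand whose gene both groups lacked, had 16.8 and 12.8 CPM.

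The list of lipid-associated macrophage genes holds lipid carriers and transporters together with lysosomal proteases and ferritin chains. Of its 24 genes, none was 2-fold apart, and 9 were higher and 15 lower in EC-iCD45KO, a share near the 43.3% of all genes that were higher; the median was -0.02. Ctsl, a lysosomal protease, was at 0.58 (1198 and 1787 CPM), the fatty-acid carrier Fabp4 at 0.52 (213 and 306 CPM) and Nr1h3, which encodes the oxysterol receptor LXR-alpha, at -0.48 (29.3 and 21.0 CPM). The 8 measured MITF and TFE genes and their lysosomal regulators had a median of 0.04, with Fnip2 at 0.27, Fnip1 at 0.15 and Mitf itself at 0.09. Galectins and galectin-3 partners, 7 measured, had a median of 0.09: Lgals9 was at -0.25, Lgals1 at 0.18 and the glycan-branching enzyme Mgat5 at 0.15. The 10 tetraspanins and CD9 partners had a median of -0.18. Cd37 was at -0.43, the partner Igsf8 at -0.38 and the growth factor Hbegf at 0.68 (15.9 and 25.4 CPM). The partner Ptgfrn, named after its value was seen, was the 1 list gene past 2-fold, at 1.09 (4.68 and 9.99 CPM).

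Against other phagocytes, the median ratio of foamy macrophage-like cells was above 1 for the lipid-associated list and below 1 for the DAP12 lists. Of the 24 lipid-associated genes, 11 were at least 2-fold higher there in both libraries (median ratios 2.05 and 1.90), beside medians of 0.909 and 0.915 over 8894 genes, of which 2.05% were 2-fold higher and 7.36% at 0.5 times or less in both. Lpl, which encodes lipoprotein lipase, stood at 7.05 and 7.50 times the level of other phagocytes and Ctsl at 7.23 and 5.60 times. None of the 17 DAP12 signalling genes was 2-fold higher and 5 were at 0.5 times or less in both libraries (medians 0.573 and 0.623). Among those with a mean of at least 20 CPM there, Ptpn6 and Btk had the highest ratios. Ptpn6 was at 0.92 times in WT and 1.01 in EC-iCD45KO, and Btk at 0.82 and 1.01 times. Of 15 TREM-family and DAP12-coupled receptors and adaptors, 7 averaged 5 CPM or more in these cells. None of the 7 was 2-fold higher in both libraries and 4, Trem1, Sirpb1b, Sirpb1c and Pilrb2, were at 0.5 times or less in both (medians 0.462 and 0.487). These 4 were named after their values were seen. Cd300lb was at 3.0 and 1.62 times and Hcst at 1.22 and 1.24 times. Of the other lists, the genes named here are the highest with a mean of at least 20 CPM. Mitf was at 1.41 and 1.24 times and Fnip2 at 1.31 and 1.20 times, beside MITF and TFE list medians of 0.907 and 1.04. Lgals1 was at 1.84 and 1.87 times and Lamp1 at 1.60 and 1.49 times, beside galectin list medians of 0.938 and 0.857. Cd151 was at 2.63 and 1.90 times and Tspan4 at 1.73 and 1.83 times, beside tetraspanin list medians of 1.49 and 1.11.

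Each gene had its own nearest companions across the tissue. Over 26 points (13 classes in 2 libraries) and 6849 genes, Trem2 was most like Ms4a7 (Pearson r of log2(CPM + 1) 0.98), C1qc, C1qb, C1qa and C3ar1, genes of macrophages. Tyrobp was most like Alox5ap (0.99), Wfdc17, Fcer1g, Itgam and Cd300c2, genes of myeloid cells at large. Gpnmb was close to Ctsb (0.93), Ctsl, Lgmn and Snx24, of which Ctsb, Ctsl and Lgmn encode lysosomal proteases. Lgals3 was close to P2ry6 (0.95), Mitf, Creg1 and Snx24, and Cd9 was most like Zfhx3 (0.92), Cebpd, Cd63, Anxa1 and Fndc3b. Within phagocytes, over 20 points (10 subclusters in 2 libraries) and 4974 genes, Trem2 was most like Timp2 (0.97), Tnfsf12, Cd63, Hexa and Pdlim4. Gpnmb was there most like Mmp12 (0.94), Fabp5, Gabarap, Ctss and Psmb6, and it was more like Cd9 (0.84) and Lgals3 (0.82) than like Trem2 (0.68); Trem2 and Tyrobp had an r of -0.11. The points of 1 library share its depth and free RNA, and these values are descriptions.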

How the data were processed

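Single-cell RNA was counted in 1 WT and 1 EC-iCD45KO library of CD31-bead-enriched aortic cells. The authors deposited raw UMI counts per gene and barcode; per the submitters' processing notes they used Cell Ranger 7.1.0 and mm10. Whether intronic reads were counted and how cells were called are not given in the sources used here. Each deposited barcode had at least 500 UMIs. The WT library held 39849 barcodes and 92058043 UMIs (median 1548 per barcode), the EC-iCD45KO library 30278 and 88967918 (median 1405). Of 32285 gene identifiers, 32158 matched GENCODE M21 on GRCm38, and 0 columns were left unused.

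Kept barcodes had 300 or more genes and no more than 10% mitochondrial UMIs (39503 and 28960). Scrublet's own threshold marked 2 cells in WT and 0 in EC-iCD45KO, so it had not worked, and the top-scoring 10% of each library was removed. Both libraries were clustered together on 2000 variable genes, 30 principal components and 20 neighbours with Leiden resolution 1, without the 5 genes, the gene lists and Ptprc. Phagocytes were sub-clustered at resolution 0.8 with each gene centred within its library, and T or NK-like cells at 0.5. Clusters were named from marker lists (mean log2 excess of at least 1, lead of at least 0.75, 3 markers at 5 CPM or more, 50 cells), and the rest stayed unnamed. The doublet rule, the sub-clustering settings and the naming thresholds were chosen after the data were seen. The 5 genes and the lists were chosen with earlier results of these data known.

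UMIs were summed per class and library as CPM, with exact Poisson intervals. Shares were taken after thinning to 1000 or 2000 UMIs, with Clopper-Pearson intervals, and share differences carry Newcombe intervals. Ratios carry exact conditional binomial intervals, all at 95%. Called genes were 2-fold apart with a mean of at least 5 CPM. Of each list, the 3 genes with the largest ratio among those with a mean of at least 20 CPM were named, with the 2 highest in foamy macrophage-like cells; for likeness, genes reached 50 CPM in at least 1 group. A few genes that these rules name are not reported here. The computations used Python 3.11.15, scanpy 1.11.5, leidenalg 0.10.2, scipy 1.17.1 and numpy 2.4.6; edgeR 4.0.16 (R 4.3.3) gave the TMM factors. The interval code was tested on simulated data. Alternatives covered the cell filter, doublets, centring, resolution, scaling, the minimum level and thinning. Further alternatives, chosen after seeing the data, were equal weights for subclusters, leaving out the shallow phagocyte cluster and leaving out shared barcodes.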

Additional observations from a re-analysis of the deposited data

How the results depend on the processing

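No paired analysis was possible because there is only 1 library in either group. Depth limits the rare genes: a count of 0 allowed 3 UMIs. In phagocytes the Trem2 log2 ratio, -0.37 as reported, was below 0 under each alternative: -0.34 with each library centred, -0.33 at resolution 2, -0.32 with TMM scaling and -0.24 with equal weights for the subclusters. Tyrobp (-0.085) was -0.032 centred, -0.065 at resolution 2 and -0.034 with TMM. Gpnmb (0.11) changed sign without doublet removal (-0.14) and centred (-0.017), and was 0.51 as a mean of single-cell CPM, 0.18 without shared barcodes and 0.29 with equal weights. Lgals3 (0.12) was 0.14 with the stricter cell filter, 0.092 without doublet removal, 0.14 centred, 0.14 at resolution 2, 0.17 with TMM and 0.082 as a single-cell mean. Cd9 (-0.09) was -0.055 centred, -0.039 with TMM, -0.14 as a single-cell mean and 0.096, of the other sign, with equal weights. Foamy macrophage-like cells numbered 166 and 40 with each library centred, 478 and 1966 at resolution 2, and 275 and 760 without doublet removal. Trem2 there ranged from -0.62 to -0.39, Gpnmb from -0.53 to 0.40 and Cd9 from -0.42 to 0.42. Tyrobp changed sign without doublet removal (0.019), and Lgals3 without doublet removal (-0.082) and at resolution 2 (-0.11). The cause was not tested. The median of the lipid-associated list (-0.02) stayed between -0.03 and 0.03, and the Trem2 share difference was -3.38 points at 2000 UMIs and -6.06 points without thinning.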
